A study of Mus musculus with 3 samples.

Results

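The genes described here move lactate across cell membranes or convert it to pyruvate. They are 9 mouse genes, 5 monocarboxylate transporters (*Slc16a1*, *Slc16a3*, *Slc16a6*, *Slc16a7* and *Slc16a8*), the membrane glycoproteins basigin (*Bsg*) and embigin (*Emb*), and the lactate dehydrogenase subunits *Ldha* and *Ldhb*. Members were taken by gene name, as every probe that the array design assigns to 1 of these genes, which gave 16 of 41174 probes and 9 of 21597 gene names. All 9 names matched RefSeq through a transcript accession of the gene, though not through every probe, and 5 of the genes had more than 1 probe. RNA came from choroid plexus epithelium (CPE), the cell layer that secretes cerebrospinal fluid, cut by laser microscopy from the lateral ventricles of 3 healthy adult C57BL/6 mice without treatment. The amplified RNA of each mouse was labelled with Cy5 and hybridized to an array of its own. A common RNA from C57BL/6 retinal pigment epithelium (RPE) and choroid, labelled with Cy3, was on every array, so dyes were not swapped and a difference between the tissues cannot be told apart from a dye effect of a probe. The reference is a mixed tissue, by its label pigment epithelium with the vessels and stroma of the choroid, and was 1 RNA. Photoreceptor and neuron markers, which the label does not name, were well above background in it too. P-values below measure only the spread between the 3 arrays. In limma this spread, and with it the SE, is moderated by that of all probes tested.

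Lactate and pyruvate cross membranes together with a proton on the monocarboxylate transporters MCT1 (*Slc16a1*), MCT2 (*Slc16a7*), MCT3 (*Slc16a8*) and MCT4 (*Slc16a3*). MCT1 is found in most tissues, MCT4 is typical of cells that export lactate, and MCT3 is known from the basolateral membranes of the RPE and the CPE. These transporters reach the membrane with a glycoprotein partner, usually basigin for MCT1, MCT3 and MCT4 and embigin for MCT2. *Slc16a6* encodes another member of the family, known for transport of ketone bodies. Lactate dehydrogenase is a tetramer of the M subunit (*Ldha*), which favours the formation of lactate, and the H subunit (*Ldhb*), which favours its oxidation to pyruvate.

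The stretches upstream of the transcription start are shown for the member with the lowest ratio to the reference. Those of the members with ratios above the threshold are shown where there was an entry. The stretches differ in several of the 6 short elements searched, of which only 1 is marked. A link between any of them and the ratios was not tested. Each is 250 bases before a RefSeq start site on GRCm38.p6, 5′ to 3′ on the strand of the gene. Capitals mark ACGTG on either strand (CACGT), which is 1 form of the core that hypoxia-inducible factor binds. Other forms of that core were not searched, so a stretch without capitals can still hold one. *Slc16a1* lies at chr3:104638414-104638663 on the plus strand, *Emb* at chr13:117220323-117220572 on the plus strand and *Ldhb* at chr6:142507958-142508207 on the minus strand.
Slc16a1: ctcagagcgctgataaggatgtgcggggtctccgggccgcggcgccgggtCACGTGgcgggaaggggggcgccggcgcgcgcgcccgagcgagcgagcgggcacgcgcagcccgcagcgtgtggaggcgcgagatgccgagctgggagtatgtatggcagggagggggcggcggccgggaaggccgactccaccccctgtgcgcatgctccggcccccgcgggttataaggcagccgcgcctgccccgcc
Emb: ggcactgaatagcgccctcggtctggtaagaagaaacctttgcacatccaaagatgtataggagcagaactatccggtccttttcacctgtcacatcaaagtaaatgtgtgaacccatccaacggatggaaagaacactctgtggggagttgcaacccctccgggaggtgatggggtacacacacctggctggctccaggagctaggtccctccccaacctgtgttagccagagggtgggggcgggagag
Ldhb: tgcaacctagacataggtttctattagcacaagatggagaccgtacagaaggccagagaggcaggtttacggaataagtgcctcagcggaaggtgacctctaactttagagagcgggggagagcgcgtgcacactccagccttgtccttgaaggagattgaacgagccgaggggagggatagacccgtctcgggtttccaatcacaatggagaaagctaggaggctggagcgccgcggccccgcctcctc
The *Slc16a1* stretch held 2 matches to ACGTG, 1 on each strand, which are the same E-box CACGTG, and the stretches of *Emb* and *Ldhb* held 0. Of the members without a printed sequence, *Slc16a3* had 2 matches, the first of the *Ldha* start sites had 5, of which 4 lie in 2 E-boxes, and *Slc16a8* and the other *Ldha* start site had 0. The letters ACGTG occur in 16.57% and CACGTG in 6.021% of all 32851 promoters of the table in windows of this length. The GC box GGGCGG, in 32.74% of promoters, was present for *Slc16a1*, *Slc16a3*, *Emb* and the first *Ldha* site, and CCAAT, in 33.85%, for *Ldhb* alone of the members with an entry. TATAAA (12.37% of promoters) matched no member, and the OTX core TAATCC (6.252%) matched the other *Ldha* start site once. The GC content was 76.4% for *Slc16a1*, 54.8% for *Emb* and 56.4% for *Ldhb*, against a median of 52.4% over all promoters. A match describes the letters and does not show binding. *Slc16a6*, *Slc16a7* and *Bsg* had no entry.

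Between 46.0% and 85.6% of probes were well above background in the CPE channel and between 68.6% and 84.2% in the reference channel, with the array of mouse 3 the highest in both. Its fitted background was also the brightest, with a CPE median of 363, where mice 1 and 2 had 81.2 and 82.6. The number of arrays limits the precision of every value. Of 9 CPE markers tested, 8 were higher in CPE, with a median log2 ratio of 2.66. That median is the ratio of *Ttr*, which was saturated in CPE on all 3 arrays, so it can be too near 0. The mean log2 level of the list ranged from 13.81 to 14.01 in CPE and from 10.79 to 11.01 in the reference. All 9 markers, among them *Ttr*, *Kl* and *Kcne2*, were well above background in CPE, as the label of the tissue has it. Pigment epithelium and stroma markers, of the labelled reference tissue, were lower, and so were photoreceptor markers. By the brightest tested probe of each gene they were the RPE and melanocyte list (8 of 9 genes, median −3.80), photoreceptors (7 of 7, −4.85) and stroma (4 of 4, −2.05). The stroma probes were not uniform. Of the 3 *Col1a1* probes 1 was lower and 1 higher, and 1 of 3 *Col3a1* probes and 1 of 2 *Dcn* probes were lower. The mean log2 level of the RPE and melanocyte list ranged from 8.53 to 8.87 in CPE and from 12.75 to 13.06 in the reference. That of the photoreceptor list ranged from 8.91 to 9.14 against 13.73 to 13.90. Of these markers, *Tyr* alone was below background in CPE on all arrays. Neuron markers (3 of 4, median −3.64), red blood cell markers (3 of 3, −1.94) and macrophage markers (2 of 3, −1.18) were lower too. Endothelial markers (0 of 6, −0.15) did not pass, of the astrocyte markers 1 was higher and 1 lower of 4 (−0.12), and of the ependyma markers 1 of 2 was higher (1.12).

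Values are log2 ratios of CPE over reference unless a level is named. A level is a normalized log2 intensity of 1 channel, and levels of different probes are not set against each other. The threshold combined an adjusted p below 0.05 (limma, Benjamini-Hochberg over 25841 probes) with a change of at least 2-fold. Over all probes tested, 7.09% were past it and higher in CPE and 10.2% were past it and lower, and the median ratio was −0.04. By the brightest probe of each of 15594 genes, 8.84% were higher and 11.2% lower. Of the 16 member probes, 13 were bright enough to test, and 3 were higher and 4 lower. By the brightest probe of each gene, here called the main probe, *Bsg*, *Emb* and *Ldhb* were higher, *Slc16a1* and *Slc16a3* were lower, *Slc16a6*, *Slc16a8* and *Ldha* did not pass, and *Slc16a7* was too dim to test. These are 3 and 2 of 8 tested genes, a number too small to set against the shares over all genes. With ratios centred on the array median in place of loess, the median of all probes moved from −0.04 to 0.09. The tested member probes moved up further and unequally. The main probe of *Ldhb* went from 1.43 to 2.37, that of *Ldha* from −0.75 to 0.16 and that of *Slc16a3* from −1.40 to −1.18. The probe counts were then 5 higher and 4 lower, and the gene counts were still 3 higher and 2 lower. Fewer cells of a type and less RNA per cell cannot be told apart in such dissected tissue.

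**Figure D1:**
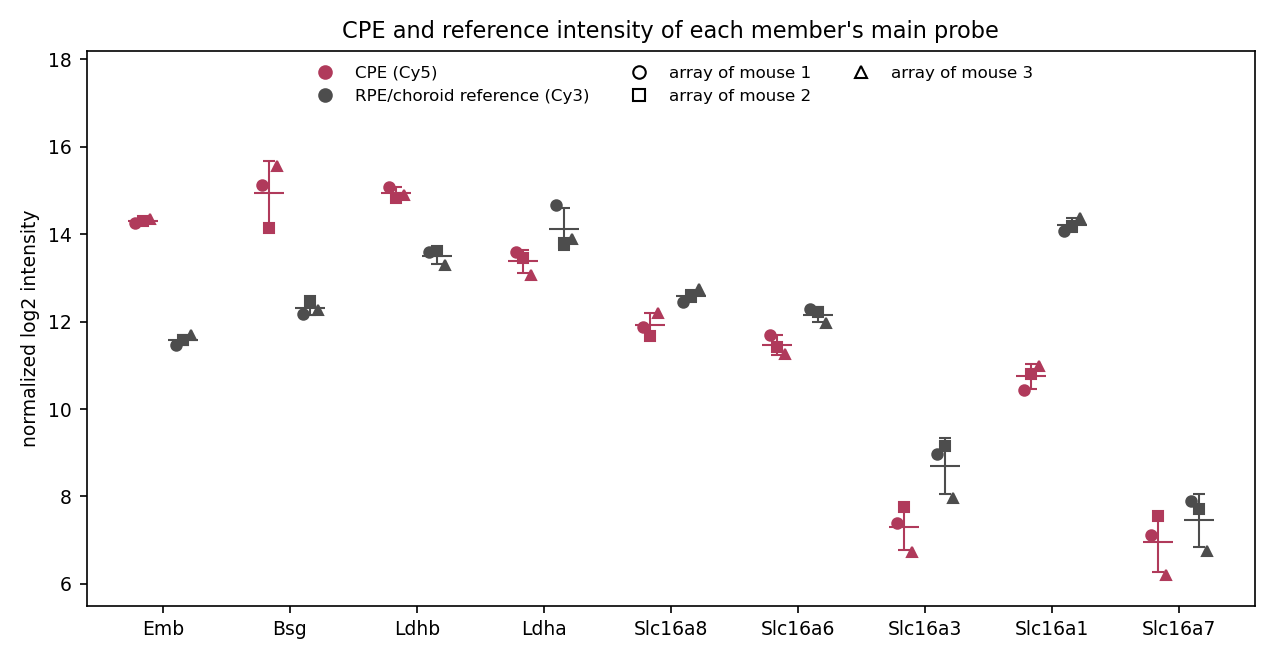
Normalized log2 intensity (vertical axis) of the main probe of each of the 9 genes in the CPE channel and in the RPE/choroid reference channel. Points are the 3 arrays, dashes and bars the mean ± SD. The channels overlap for *Slc16a7*, and the *Slc16a1* reference values, 14.07 to 14.38, lie above the CPE values, 10.44 to 10.99.

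MCT1 gave the lowest ratio of the set. The main *Slc16a1* probe (chr3:104785973-104786033, plus strand, mm8 coordinates of the array file) had CPE levels of 10.44, 10.81 and 10.99 in mice 1, 2 and 3 and reference levels of 14.07, 14.18 and 14.38. All CPE values lay below all reference values. The log2 ratios of −3.63, −3.37 and −3.39 had a mean of −3.46 (SD 0.15, n = 3, SE 0.15, adjusted p = 9.95e-06), which is 11.0-fold lower in CPE. With median centring the mean was −2.66 (adjusted p = 0.000205). The other *Slc16a1* probes were lower by a similar amount. The probe at 104786079-104786138 had a mean of −3.10 (adjusted p = 2.02e-05) and the one at 104782221-104782280, nearer the 5′ end, a mean of −3.48 (adjusted p = 1.20e-05). *Slc16a1* was nevertheless a bright probe in CPE. On the scale of the study, a percentile rank of the CPE intensity over all 41174 probes with the high class above 90, its main probe was at 90.7, 93.1 and 93.7 in the 3 mice. By the intensity of the mean it was at 92.8. It was no longer in the high class when 1 value per gene was ranked (88.6) or when probes not above background were left out (83.8). The 5′ probe was at 57.7. The RPE, photoreceptor and stroma markers given above were lower in CPE as well, and their part in the ratio of *Slc16a1* was not tested.

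MCT4 was dim in both tissues. The *Slc16a3* probe (chr11:120774799-120774858, plus strand) had CPE levels of 7.38, 7.76 and 6.72 and reference levels of 8.96, 9.15 and 7.97. The reference level was above the CPE level on every array, although the lowest reference value was only just above the highest CPE value. The ratios of −1.58, −1.39 and −1.25 had a mean of −1.40 (SD 0.17, n = 3, SE 0.16, adjusted p = 0.000458), or 2.65-fold lower. It was at percentile 51.0 in CPE, from 27.5 in mouse 3 to 61.6 in mouse 2, at the lower edge of the moderate class. It was in the low class with loess before Aquantile (44.8), with the scanner's processed signal (48.1), by the deposited levels (47.3) and with 1 value per gene (38.9). It was low as well without mouse 1 (45.4) and without mouse 2 (43.7). Tested against a 2-fold change in place of 0, *Slc16a3* was no longer past the threshold (adjusted p = 0.218).

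MCT3, the transporter shared by the CPE and the RPE, was bright in both. The *Slc16a8* probe (chr15:79078683-79079136, minus strand) had CPE levels of 11.88, 11.68 and 12.21 and reference levels of 12.46, 12.58 and 12.74. The channels did not overlap but lay close together. The mean ratio of −0.67 (−0.57, −0.90 and −0.54, SD 0.20, n = 3, SE 0.16, adjusted p = 0.0134) was short of 2-fold, and it was 0.11 (adjusted p = 0.841) with median centring, so its sign depended on the scaling. Its percentile in CPE was 96.5, 96.0 and 97.4. Set against MCT1 on the same arrays, the log2 ratio of *Slc16a1* minus that of *Slc16a8* was −3.06, −2.47 and −2.85 in the 3 mice. The mean difference was −2.79 (SD 0.30, n = 3), or 6.93-fold, with the same direction in 3 of 3 mice. An exact two-sided sign permutation test gave p = 0.25, the smallest that 3 arrays allow. With median centring the difference was −2.77.

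MCT2 could not be measured reliably. The main *Slc16a7* probe (chr10:124630788-124630847, minus strand) was well above background in CPE on 1 of 3 arrays and in the reference on 2 of 3. Its CPE levels were 7.12, 7.56 and 6.21 and its reference levels 7.89, 7.71 and 6.75, and the ratios were −0.77, −0.15 and −0.54. It was at percentile 30.8 in CPE, in the low class. Another probe at 124629580-124629639, itself not matched to RefSeq, was not above background on any array in either channel. Neither passed the threshold when the filter on dim probes was left out (adjusted p = 0.0659 and 0.872).

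*Slc16a6* gave opposite signs with its 2 probes. The main probe (chr11:109268834-109268893, minus strand) had CPE levels of 11.70, 11.41 and 11.26 against reference levels of 12.30, 12.21 and 11.97, with no overlap. Its ratios were −0.60, −0.80 and −0.71, with a mean of −0.70 (SE 0.15, adjusted p = 0.00878). The probe nearer the 3′ end, at 109267147-109267205, had ratios of 0.91, 1.16 and 0.55, with a mean of 0.88 (SE 0.17, adjusted p = 0.00627). Both were short of 2-fold. With median centring the main probe changed sign, to 0.059, and the 3′ probe was past the threshold and higher, at 1.55. The 3′ probe was also past it with the scanner's log ratio, at 1.01 (adjusted p = 0.0316), and without mouse 3, at 1.04 (adjusted p = 0.00403). Both probes were in the high class in CPE, at percentiles 95.5 and 94.1, although the main probe was at 89.9 when probes not above background were left out, and no direction is given for the gene.

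The glycoprotein partners were both higher in CPE. *Emb*, on its main probe near the 3′ end (chr13:118393205-118393264, plus strand), had CPE levels of 14.25, 14.30 and 14.36 and reference levels of 11.46, 11.57 and 11.70. The CPE values lay close together and all were above the reference. The ratios of 2.79, 2.73 and 2.66 had a mean of 2.72 (SD 0.068, n = 3, SE 0.15, adjusted p = 1.98e-05), or 6.61-fold higher, and the probe was at percentile 99.6. With median centring the mean was 3.56. A second *Emb* probe nearer the 5′ end (118368722-118369017) had ratios of 1.86, −0.26 and 1.46, of which mouse 2 was the low one. It had a mean of 1.02 (SE 0.37, adjusted p = 0.0605) and was past the threshold without mouse 2, at 1.66 (adjusted p = 4.43e-05). The third *Emb* probe (118345235-118345294), itself not matched to RefSeq, was above background on 1 of 3 arrays in each channel and was not tested.

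*Bsg* (chr10:79113774-79113833, plus strand), the partner of MCT1, MCT3 and MCT4, had CPE levels of 15.12, 14.14 and 15.56 and reference levels of 12.17, 12.46 and 12.27. Every CPE value was above every reference value. The ratios of 2.95, 1.67 and 3.28 had a mean of 2.64 (SD 0.85, n = 3, SE 0.29, adjusted p = 0.000458), or 6.21-fold higher, and with median centring it was 3.51. Mouse 2 was again the lowest, and the probe was saturated in CPE in mouse 1, so that ratio can be too near 0. At percentiles 99.9, 99.5 and 99.9, *Bsg* was among the brightest probes of the CPE.

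**Figure D2:**
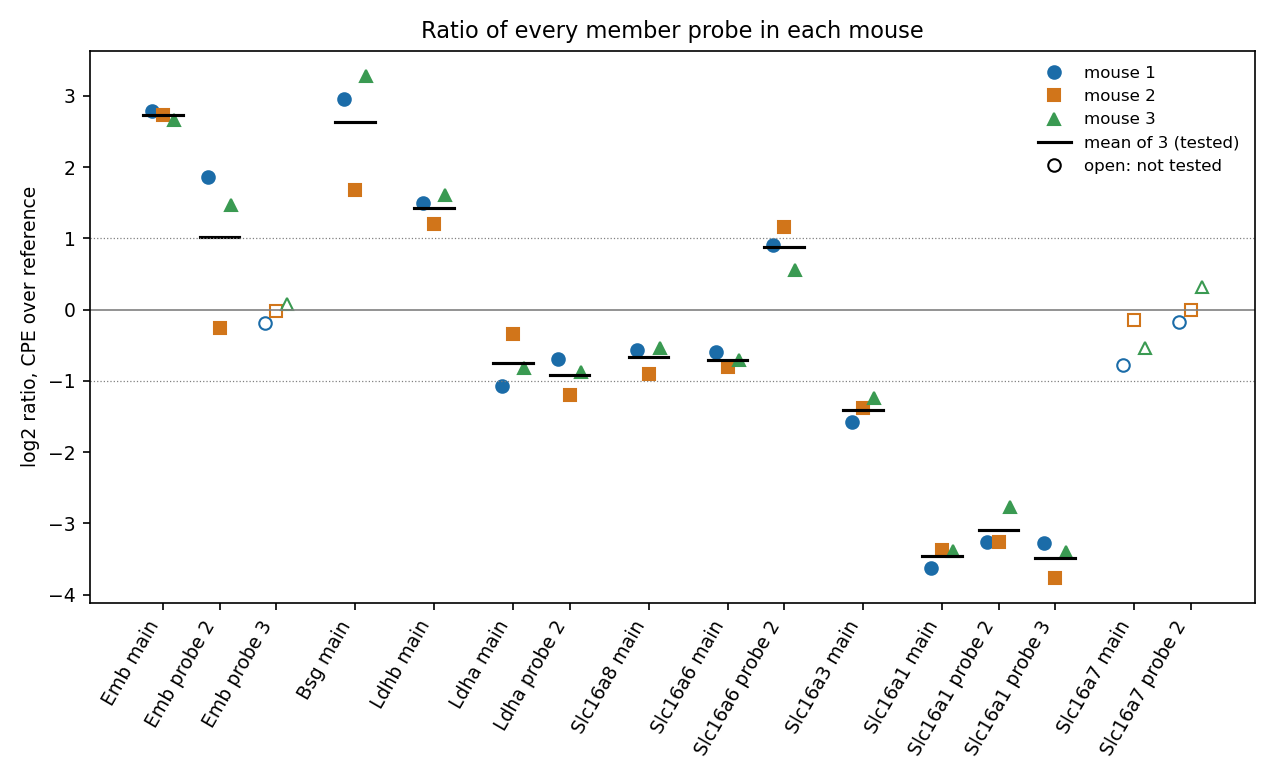
Log2 ratio of CPE over reference (vertical axis) for all 16 member probes, with a point for each mouse and a line at the mean of the 13 probes tested. Open points are the 3 probes not tested, and dotted lines mark a 2-fold change. The 3 *Slc16a1* probes lie between −3.76 and −2.77, and *Emb* and *Bsg* main probes lie above 1.6 in every mouse.

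The lactate dehydrogenase subunits differed in their ratios. *Ldhb* (chr6:142447540-142447599, minus strand), the H subunit, had CPE levels of 15.09, 14.82 and 14.90 and reference levels of 13.60, 13.62 and 13.29. The channels did not overlap, and the probe was saturated in CPE in mouse 1. The ratios of 1.49, 1.20 and 1.61 had a mean of 1.43 (SD 0.21, n = 3, SE 0.16, adjusted p = 0.000478), or 2.70-fold higher, and with median centring it was 2.37. Against a 2-fold change in place of 0, the adjusted p was 0.192. *Ldhb* was at percentile 99.9.

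*Ldha*, the M subunit, was a bright probe in both tissues. Its main probe (chr7:46723561-46723620, plus strand) had CPE levels of 13.60, 13.47 and 13.08 and reference levels of 14.67, 13.80 and 13.90. The channels did not overlap, and the ratio of mouse 2 was the nearest to 0. The ratios of −1.08, −0.34 and −0.82 had a mean of −0.75 (SD 0.38, n = 3, SE 0.19, adjusted p = 0.0159), short of 2-fold, and the mean was 0.16 (adjusted p = 0.797) with median centring. The other *Ldha* probe (46722098-46723027) had a mean of −0.92 (SE 0.17, adjusted p = 0.00413) and was past the threshold without mouse 1, at −1.04. The percentiles of the probes in CPE were 99.0 and 98.3. The ratio of *Ldhb* exceeded that of *Ldha* by 2.57, 1.53 and 2.43 in the 3 mice. The mean difference was 2.18 (SD 0.56, n = 3), or 4.53-fold, in the same direction in 3 of 3 mice, and the exact two-sided sign permutation test again gave its smallest possible p of 0.25. Since *Ldhb* was saturated in CPE in mouse 1, the difference in that mouse, and with it the mean, can be too small. The difference is one between ratios, and the amounts of the subunits in CPE cannot be read from it.

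In the order of the mean ratios, *Emb* and *Bsg* came first and did not differ beyond their spread (difference 0.09, SD 0.87). *Ldhb* followed, below *Bsg* in 3 of 3 mice by 1.20 (SD 0.64). Both *Bsg* and *Ldhb* were saturated in CPE in mouse 1, so these differences are not exact there. *Slc16a8*, *Slc16a6* and *Ldha* then formed a group within which neighbours differed by 0.033 (SD 0.14) and 0.043 (SD 0.48), less than their spread. *Ldhb* lay above *Slc16a8*, the first of that group, by 2.10 (SD 0.042) and above *Ldha*, the last, by the 2.18 (SD 0.56) given above. *Slc16a6* stands in this order by its main probe, while its 3′ probe, at 0.88, would place it between *Ldhb* and *Slc16a8*. The main probes of the group had mean ratios above 0 with median centring, as given for each gene. *Slc16a3* was below *Ldha* by 0.66 (SD 0.34), in 3 of 3 mice, and *Slc16a1* lay a further 2.06 (SD 0.082) lower. The main probes of 7 of the 9 genes were in the high class in CPE, all but *Slc16a3* and *Slc16a7*, and of these 7, 3 were higher than the reference, 1 was lower and 3 did not pass. A main probe is the brightest of its gene, while the class is cut over all probes. The count can therefore not be set against the share of all probes in the class. Of the genes from glucose uptake to pyruvate 13 of 15 were in the high class too. Of those for the handling of pyruvate in the mitochondrion 10 of 13 were. It held fewer of the other lists described below, with 4 of 8 other *SLC16* family genes and 1 of 7 other lactate genes. A share over the main probes of all genes is not given.

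Probes of 1 gene were then set in order along the transcript. The 5′-most tested probe had the lower mean ratio in all 4 genes with several tested probes. The difference, 5′ minus 3′, was −1.70 for *Emb* (−0.93, −2.99 and −1.19 in mice 1, 2 and 3) and −1.58 for *Slc16a6* (−1.51, −1.96 and −1.27). It was −0.38 for *Slc16a1* (−0.019, −0.49 and −0.64) and −0.18 for *Ldha* (0.38, −0.87 and −0.05), of which only *Ldha* changed sign between mice. Mouse 2 had the lowest value in 3 of these 4 genes, *Slc16a1* being the exception. In the reference level alone, from 1 RNA, the same 5′ minus 3′ difference ranged between arrays by 0.98 for *Slc16a1* and 0.86 for *Ldha*. The range was 0.25 for *Slc16a6* and 0.16 for *Emb*. The values by mouse therefore also hold differences between arrays, which are large for *Slc16a1* and *Ldha*. The RNA was amplified before labelling, and the part of amplification or RNA length in these differences was not tested. The main probes of *Emb* and *Ldha* are the 3′ ones, while that of *Slc16a6* is the 5′ one.

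**Figure D3:**
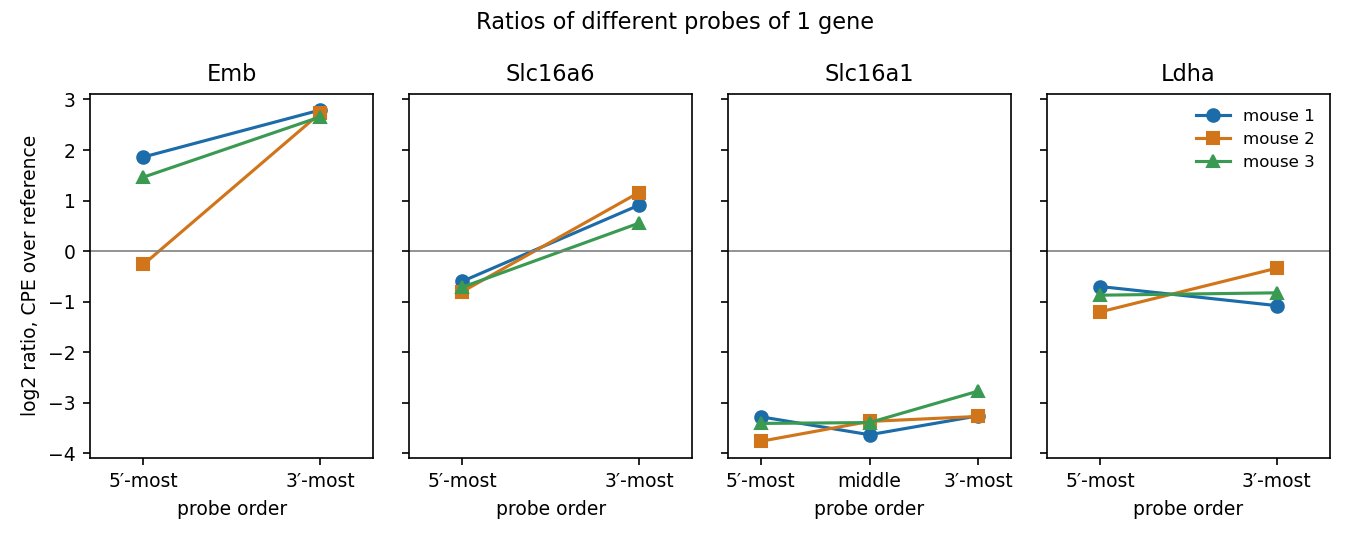
Log2 ratio of CPE over reference (vertical axis) of the tested probes of *Emb*, *Slc16a6*, *Slc16a1* and *Ldha*, ordered from the 5′-most to the 3′-most probe, with a line for each mouse. *Emb* fell from 2.73 at the 3′ probe to −0.26 at the 5′ probe in mouse 2, and the *Slc16a6* probes lie on either side of 0 in every mouse.

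The other genes of the pathway were counted by their main probes. Over all genes 8.84% were higher and 11.2% lower, and each list is too small to set against these shares. Of 8 other *SLC16* family genes, 7 could be tested and 3 were higher and 0 lower, with a median ratio of 0.17 against −0.016 over all genes. The 3 were *Slc16a4* at 2.45, *Slc16a12*, a creatine transporter, at 1.94, and *Slc16a13* at 1.19. *Slc16a13* was 1.55, 1.60 and 0.43 in the 3 mice and was not past the threshold without mouse 2, at 0.99. The remaining lactate genes, which are sodium-coupled transporters, the lactate receptor, further dehydrogenases and the basigin relative neuroplastin, were mostly dim. Of these 7 genes 3 could be tested. *Slc5a8*, a sodium-coupled lactate transporter, was lower, at −1.33 (−1.97, −1.54 and −0.49, adjusted p = 0.0069), and was above background in CPE on 2 of 3 arrays. It entered the test through the reference channel and was not tested among probes measured in both channels, so the size of its ratio is uncertain. *Ldhd*, which acts on D-lactate, at 0.76, and neuroplastin (*Nptn*), at 0.94, were short of 2-fold. The median of the 3 was 0.76.

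Of the genes that carry pyruvate into the mitochondrion, use it there or regulate its oxidation, all 13 on the array were tested. Of these, 3 were higher and 0 lower, with a median of 0.29. The shares over all genes were 8.84% and 11.2%. Higher were the pyruvate dehydrogenase kinases *Pdk2*, at 2.25, and *Pdk4*, at 1.91, which inhibit the pyruvate dehydrogenase complex, and pyruvate carboxylase (*Pcx*), at 1.08. *Pcx* was 0.97 without mouse 2 and then short of 2-fold. The pyruvate carriers and the subunits of the complex had ratios between −0.14 and 0.64 and did not pass. With median centring 6 of the 13 were higher.

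Of the genes from glucose uptake to pyruvate, 15 of 15 were tested, 1 was higher and 3 were lower, with a median of 0.07. Over all genes the shares were 8.84% higher and 11.2% lower, and these counts are too small to differ from them clearly. Lower were hexokinase 2 (*Hk2*) at −3.55, aldolase C (*Aldoc*) at −2.42 and the glucose transporter *Slc2a1* at −2.27, and higher was the phosphofructokinase *Pfkl* at 1.08. By their main probes, these 3 lower genes were past the threshold on every alternative tried, including median centring, where 6 genes were higher and 3 lower. Of the 2 *Aldoc* probes only 1 was called lower. Of the 3 *Pfkp* probes 1 was lower, although the main probe had a ratio of −0.06. *Pkm*, pyruvate kinase, had 0.998 by its main probe, just short of 2-fold, and another of its probes was past the threshold and higher. Of the 6 *Hk1* probes 3 were higher, although the main probe had a ratio of 0.07. *Eno1* had ratios of 0.03, −3.22 and 1.03, with mouse 2 far below the others.

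**Figure D4:**
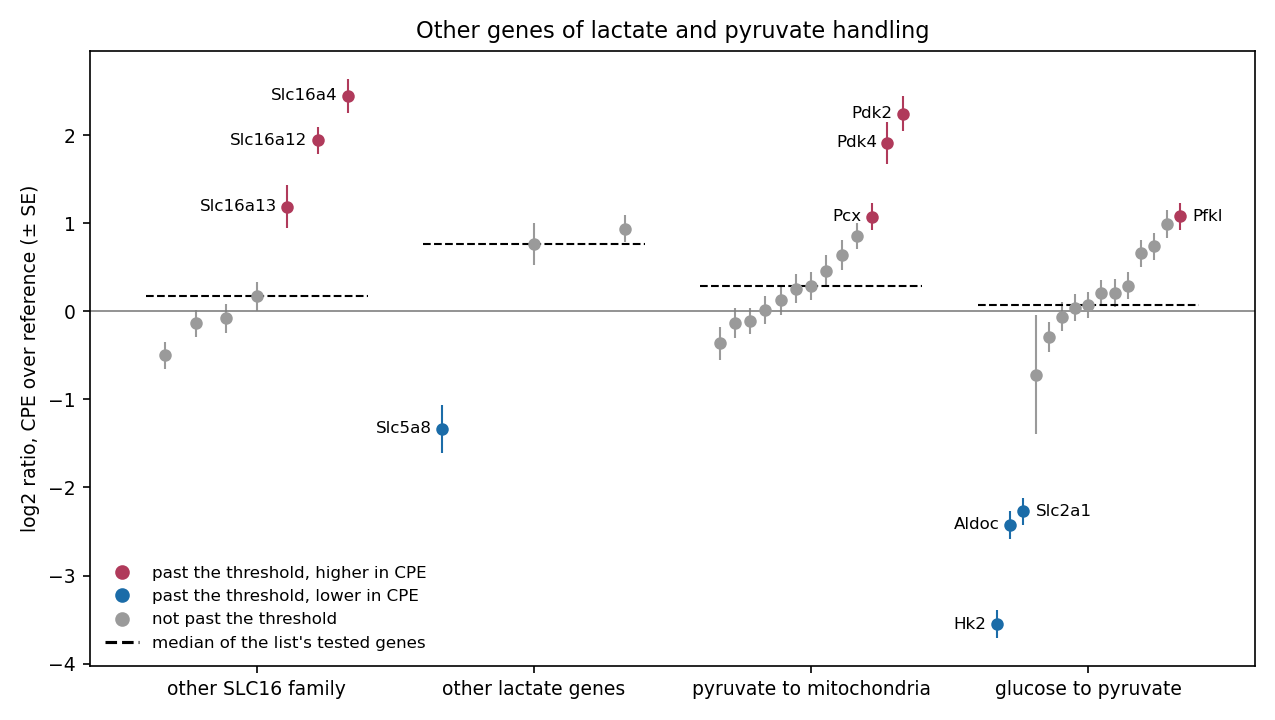
Mean log2 ratio of CPE over reference ± SE (vertical axis) of the main probe of each tested gene in 4 lists around lactate and pyruvate, with the dashed line at the median of the list. Genes past the threshold are named. The medians are 0.17, 0.76, 0.29 and 0.07 from left to right, and *Hk2* is the lowest gene at −3.55.

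Other genes with the same pattern over the 3 mice were looked for among 12380 genes measured in both channels on all arrays, by the Euclidean distance between the log2 ratios of the 3 mice. Among the nearest to *Emb* were *Maob* (distance 0.11) and *Thyn1* (0.19). Among the nearest to *Slc16a1* were *Gja1* (0.11) and 7530404M11Rik (0.14). Over 3 values this likeness describes mainly the size of the ratio.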

How the data were processed

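Expression was measured on Agilent 44k mouse arrays, with CPE in Cy5 and the reference in Cy3. The deposited scanner files hold the mean intensity of each spot and its local background in both channels, as the authors extracted them with Agilent Feature Extraction 9.5.3.1, with the scanner's own log10 ratio beside them. A table of log2 levels that the authors normalized with the Aquantile method in limma (R 2.14.0, per the study's methods and submitters' processing notes) was used as an alternative only. Its levels ranked probes like the ranks used here (Spearman's rho 0.998, 0.998 and 0.9997 over the probes of each array). Gene names and positions are those of the array design (mm8). No genome of that build was at hand, so exons and UTRs are not given.

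In R 4.3.3 with limma 3.58.1, background was corrected with normexp (offset 50), ratios were normalized by loess within arrays with control spots at weight 0, spots marked as outliers were dropped, and repeated spots of a probe were averaged. A probe had to be well above background in 1 and the same channel on each of the 3 arrays to enter the fit of an intercept against 0 with eBayes, with p-values adjusted by Benjamini-Hochberg over all of them. Levels per channel were taken after loess and Aquantile, which leaves ratios as they were. Percentile ranks used log2 mean Cy5 intensity after Aquantile, without background correction, with classes above 90, from 50, from 10 and below 10. The fit was tested on simulated data. All members are named, by every probe. Of the pathway lists, genes past the threshold by their brightest tested probe are named, at most 4 per list by absolute ratio. *Ldhd*, *Nptn*, *Pkm*, *Hk1*, *Pfkp* and *Eno1* were named after their values were seen. Some genes are not reported here and are left out of the list counts. The members and lists were chosen with earlier results of these data known. No slide held more than 1 array, so slide and mouse cannot be told apart.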

Additional observations from a re-analysis of the deposited data

How the results depend on the processing

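No paired analysis was possible because the series has 1 group of mice. With any mouse left out, 3 member genes were higher and 2 lower, 3 to 4 probes were higher and 4 to 5 lower, and 7 genes were in the high class. That class held 6 with 1 value per gene and 5 when probes not above background were left out. It also held 5 by the deposited levels, which give no value over all mice for *Bsg* and *Ldhb*. The *Ldhb* minus *Ldha* difference ranged from 1.98 to 2.50 and that of *Slc16a1* minus *Slc16a8* from −2.95 to −2.66. Median centring was the setting that moved most. It made 5 member probes higher, and 3 ratios changed sign: the main probes of *Slc16a6* (0.059), *Slc16a8* (0.11) and *Ldha* (0.16). The ratio of *Slc16a6* was also above 0, at 0.086, as the median of its tested probes, and that of *Emb* was then 1.87. Limma's treat against a 2-fold change left 1 member gene lower and, being a stricter test by construction, removed the calls of *Ldhb* and *Slc16a3*.

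Among the pathway lists, genes higher in glucose to pyruvate numbered 2 with the background surface, 6 with median centring, 2 with the scanner's log ratio, 0 under treat and 1 to 2 with a mouse left out. For pyruvate to mitochondria they were 6 with median centring, 4 with the scanner's log ratio, 1 under treat and 2 to 3 with a mouse left out. For the other lactate genes 1 was higher with a normexp offset of 10, with median centring and with the scanner's log ratio, and 0 to 1 with a mouse left out, and 0 were lower among probes measured in both channels and under treat. Counts in the other *SLC16* family were 3 higher and 0 lower in all but the fit without mouse 2 and treat, which each gave 2 higher. The cause of these shifts was not tested. The second *Emb* probe passed the threshold with median centring (1.64), among probes measured in both channels, with array weights (1.20) and without mouse 2. Members near the background, *Slc16a7* and *Slc16a3* in CPE, are limited by signal: *Slc16a3* was at percentile 4.19 among probes above background.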
